A study of Mus musculus with 24 samples.

Results

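The subunits of the mitochondrial respiratory chain and ATP synthase that are encoded in the nucleus were followed in the hippocampus (HIP) and entorhinal cortex (EC) of Ts65Dn mice, a model of Down syndrome, and of their wild-type (wt) littermates. Members were chosen by name and a count minimum, with earlier results of these data known. They are the protein-coding nuclear genes whose symbol starts with Ndufa, Ndufb, Ndufc, Ndufs, Ndufv, Uqcr, Cox4 to Cox8 or Atp5, together with Sdha to Sdhd and Cyc1, with a mean raw count of at least 10 over the 24 libraries. This gave 84 of the 55385 genes in the count table, namely 38 of complex I, 4 of complex II, 9 of complex III, 16 of complex IV and 17 of complex V. Of 87 protein-coding genes with such a name, 3 stayed under the minimum: Cox8c, a second identifier named Atp5o, both with 0 counts, and Cox7b2 with a mean count of 8.88. Another 13 genes with such a name are not protein-coding and were left out.

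The Ts65Dn mice carried, in addition to the normal chromosome set, a freely segregating minichromosome made of the distal part of mouse chromosome 16 (Mmu16), which is homologous to human chromosome 21 (Hsa21), joined to the centromeric end of Mmu17, which is not. Both genotypes were males aged 5 to 6 months on the same mixed B6C3B background, with neither transgene nor treatment. HIP and EC were taken from each of 6 wt and 6 Ts65Dn mice, and each of the 24 libraries comes from 1 region of 1 mouse. The labels give the RNA as polyadenylated. The study's methods describe ribosomal RNA depletion of total RNA but also name the extracted RNA as poly(A). This conflict bears on the levels of mtDNA-encoded and noncoding RNA. The Mmu17 segment limits the line as a model, since its genes are triplicated without being on Hsa21.

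Complex I (NADH dehydrogenase) and complex II (succinate dehydrogenase) feed electrons to ubiquinone, complex III passes them to cytochrome c, and complex IV (cytochrome c oxidase) to oxygen. The protons pumped on the way drive complex V, the ATP synthase, which supplies much of the ATP that neurons spend on ion pumping and synaptic transmission. Each complex needs its subunits in fixed proportions, and except in complex II some are encoded by the mitochondrial DNA (mtDNA). Only Atp5j and Atp5o among the members lie in a triplicated segment, both on Mmu16, so each has an extra gene copy beside 82 partners that do not.

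Library totals ranged from 23128589 to 40476492 counts, and the members together took 0.916% to 1.17% of them. Levels are given as counts-per-million (CPM) after TMM scaling of the library sizes. Of 6 hippocampal markers, Prox1, C1ql2, Dsp, Fibcd1 and Spink8 were higher in every HIP than in every EC library, while Wfs1 was lower in the HIP of all mice but 1 (146.9 against 213.9 CPM on average). Of 6 cortical markers, Tbr1, Rorb, Cux2 and Lamp5 were lower in every HIP library, while Tshz2 was higher in 11 of 12 mice (70.9 against 21.3 CPM) and Fezf2 hardly differed (24.12 against 24.08 CPM). The libraries labelled Ts65Dn replicate 3 did not match their genotype label. Over 90 triplicated genes their median stood 0.01 log2 units from the wt mean in each region, against 0.52 to 0.59 in the other 5 Ts65Dn mice. They were kept, and values without them are given where a call changed and for the triplicated members. In bulk tissue, fewer cells of a type and less RNA per cell cannot be told apart.

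The promoters of the triplicated members are shown because both genes carry the dosage change and a start of 1 of them shares its region with a neighbour. Atp5j (ENSMUSG00000022890, chr16:84827866-84835625 on GRCm38, minus strand) encodes coupling factor 6 and Atp5o (ENSMUSG00000022956, chr16:91925214-91931687, minus strand) the OSCP subunit, and both proteins are part of the stalk that holds the catalytic head of the ATP synthase to its membrane base. The RefSeq windows on GRCm38.p6 run from 250 bases before to 50 bases after the start, at chr16:84834927-84835226 for Atp5j and chr16:91931581-91931880 for Atp5o. They are printed on the gene's strand, with capitals marking matches to the motifs named next.
Atp5j: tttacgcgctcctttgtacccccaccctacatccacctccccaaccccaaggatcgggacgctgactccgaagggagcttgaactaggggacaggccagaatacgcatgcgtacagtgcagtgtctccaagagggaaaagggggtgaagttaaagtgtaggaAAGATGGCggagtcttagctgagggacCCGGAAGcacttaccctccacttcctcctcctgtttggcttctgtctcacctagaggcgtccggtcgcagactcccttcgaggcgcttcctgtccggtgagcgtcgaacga
Atp5o: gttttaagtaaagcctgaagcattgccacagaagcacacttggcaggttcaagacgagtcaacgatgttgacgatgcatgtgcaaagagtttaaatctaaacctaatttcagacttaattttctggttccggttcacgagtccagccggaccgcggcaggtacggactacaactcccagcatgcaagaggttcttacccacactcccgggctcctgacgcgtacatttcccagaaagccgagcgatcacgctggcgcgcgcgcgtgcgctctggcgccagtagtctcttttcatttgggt
Searched on both strands were CCGGAAG, the core bound by GABP and other ETS factors, GCATGCGC, the core bound by the nuclear respiratory factor Nrf1, and AAGATGGC, the core bound by Yy1. The Atp5j window held AAGATGGC starting 88 bases and CCGGAAG 61 bases before the start, while the Atp5o window held none of the 3 sequences. Of the 68 members with a window in the RefSeq table, 16 (23.5%) held CCGGAAG against 9.93% of all 27025 genes, 10 (14.7%) held GCATGCGC against 3.05%, and 10 (14.7%) held AAGATGGC against 3.19%. These are matches of letters and not evidence of binding.

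The Atp5j window was chosen for its overlap with that of Gabpa, so the overlap was set by the choice. It shared 247 of its 300 bases with the window of Gabpa, which is read in the opposite direction from chr16:84834874-84835173. The annotated Atp5j gene starts outside the printed window, at 84835625 on the minus strand. Gabpa encodes the DNA-binding subunit of GABP, a factor known for regulating nuclear respiratory genes, and is itself triplicated. Its mean level was 42.7 CPM in Ts65Dn and 34.1 CPM in wt HIP, a log2 fold change of 0.32 ± 0.11 (SE, n = 6 mice per genotype) with an adjusted p of 0.175. In the EC it was 29.9 CPM against 22.9 CPM, a log2 fold change of 0.38 ± 0.11 (SE) with an adjusted p of 0.0849. Without replicate 3 the values were 0.39 ± 0.09 (adjusted p = 0.0502) and 0.47 ± 0.06 (adjusted p = 0.000373), so that Gabpa passed in EC.

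The first question was whether the extra copy of Atp5j and Atp5o was matched by more of their mRNA. In wt HIP, Atp5j ranged from 74.1 to 83.3 CPM with a median of 80.01, and in Ts65Dn HIP from 82.5 to 128.2 with a median of 124.8. In wt EC it ranged from 75.8 to 99.5 CPM with a median of 89.97, and in Ts65Dn EC from 105.7 to 139.2 with a median of 125.5. The lowest Ts65Dn value in each region belonged to replicate 3, and this library was the only Ts65Dn library that overlapped wt in the HIP on this scale, while the genotypes did not overlap in EC. In the EC, the median of replicate 3 over the 82 partners also stood 0.20 log2 units above the wt mean. Over 314 genes with transcripts under 1000 bases it stood 0.21 above, and over 76 cytosolic ribosomal protein genes 0.24. Each of these medians was the highest of the Ts65Dn EC libraries, and the part of this shift in the separation was not tested. In HIP samples Atp5j rose by 0.57 ± 0.09 on the log2 scale (SE, n = 6 per genotype), or 1.49-fold (95% interval of the log2 value 0.38 to 0.77), with an adjusted p of 0.00986. In the EC the log2 fold change was 0.50 ± 0.08 (SE), or 1.42-fold, with an adjusted p of 0.00862. These p-values came from edgeR's quasi-likelihood test within each region and were adjusted by Benjamini-Hochberg over all genes tested.

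Atp5o moved by a similar amount. In wt HIP it ranged from 56.6 to 64.1 CPM with a median of 62.7, and in Ts65Dn HIP from 62.5 to 99.8 with a median of 90.1. In wt EC it ranged from 69.7 to 83.9 CPM with a median of 75.8, and in Ts65Dn EC from 90.9 to 124.8 with a median of 108.2. Replicate 3 was again the lowest Ts65Dn library in each region and the only one that overlapped wt in the HIP. The log2 fold change was 0.50 ± 0.09 (SE) in the HIP, or 1.41-fold, with an adjusted p of 0.0218, and 0.50 ± 0.07 (SE) in EC, or 1.42-fold, with an adjusted p of 0.00449. Part of the Atp5o exons matches a processed pseudogene, so its reads can be split between the genes, and Atp5j has no such copy.

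An exact permutation test over the 12 mice, two-sided on the CPM values, gave p = 0.00433 for Atp5j and p = 0.0130 for Atp5o in the HIP (n = 6 per genotype). In the EC the same exact test gave p = 0.00216 for each of the genes, the smallest value the 924 arrangements allow. On CPM by library total, without TMM, the genotypes did not overlap in the HIP either, and the exact p was 0.00216 for each gene in each region. All these exact tests counted replicate 3 as Ts65Dn. Without replicate 3 the log2 fold change of Atp5j became 0.66 ± 0.04 (SE, n = 5 Ts65Dn and 6 wt mice) in the HIP and 0.55 ± 0.07 in EC, and that of Atp5o 0.58 ± 0.05 in the HIP and 0.55 ± 0.06 in EC, all still past the threshold. In the HIP the Atp5o call was lost without Ts65Dn replicate 6 (log2 fold change 0.48, adjusted p = 0.0536 by edgeR) or wt replicate 3 (0.50, adjusted p = 0.0529).

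**Figure D1:**
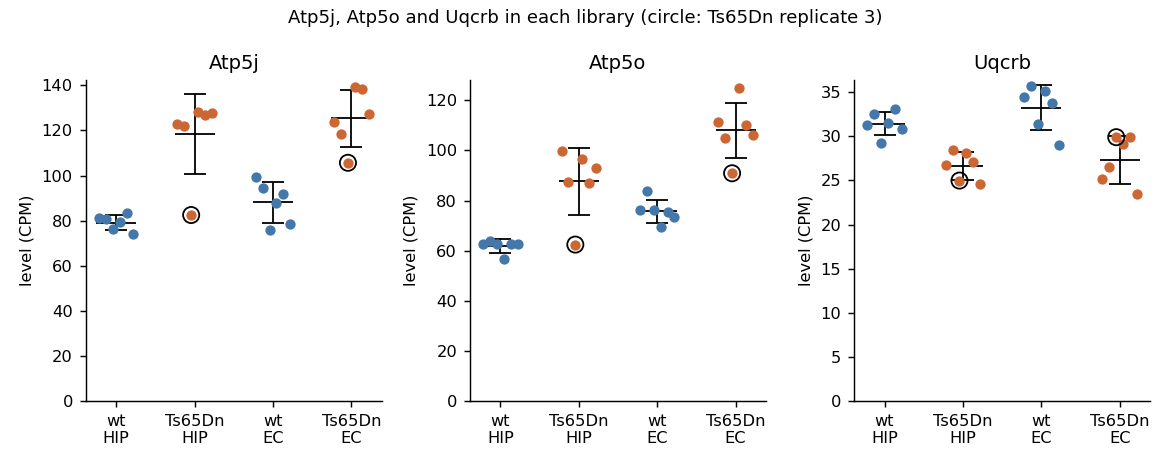
Level in CPM of Atp5j, Atp5o and Uqcrb in each library, by region and genotype, with bars for the mean and SD of 6 libraries and the circled point for Ts65Dn replicate 3. Both triplicated genes sit higher in Ts65Dn except in the circled library of the HIP, which lies among the wt values, and Uqcrb sits lower.

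Set against the other 15 complex V members in the same library, with the wt mean as 1, Atp5j stood at 1.41 to 1.67 in the HIP and at 1.39 to 1.63 in EC of the 5 Ts65Dn mice other than replicate 3. Replicate 3 stood at 1.15 and 1.12, and the wt libraries ranged from 0.905 to 1.11 and from 0.873 to 1.11. The ratio of Atp5o was 1.40 to 1.48 in the HIP and 1.43 to 1.67 in EC of the same 5 mice, against 1.11 and 1.12 in replicate 3. Its wt values ranged from 0.972 to 1.02 and from 0.960 to 1.02. Relative to their complex, the levels of both mRNAs were thus above every wt library in the 5 Ts65Dn mice other than replicate 3. Replicate 3, whose libraries did not match their label, stood above the highest wt library by less, for Atp5j at 1.15 against 1.11 in the HIP and 1.12 against 1.11 in EC.

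The next question was whether the 82 partners with a normal copy number changed with the genotype. In the HIP, 3 of 84 members were called at an adjusted p under 0.05, 2 higher (Atp5j and Atp5o) and 1 lower (Uqcrb), or 1 of the 82 partners, beside 1.04% of all 17355 genes tested (0.542% higher and 0.501% lower). In the EC, 83 members could be tested, all but Cox8b, and Atp5j and Atp5o were called higher and none lower, beside 2.50% of 17049 genes (1.15% higher and 1.35% lower). The median log2 fold change over the partners was 0.01 in the HIP and -0.02 in EC, against 0.00 over all genes in each region. At an unadjusted p under 0.05 stood 16 of 82 partners in the HIP beside 14.8% of all genes, and 4 of 81 in EC beside 19.0%. Without replicate 3 the calls were the same 3 genes in the HIP, beside 1.82% of all genes, and in EC Uqcrb was added, beside 2.79%. DESeq2 called 8 of 81 members with an adjusted p in the HIP, or 6 partners, adding Cox5b and Cox8a (higher) and Cox7a2, Cox7b and Ndufs4 (lower), beside 4.62% of all genes.

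How large a change could have been missed differs between members. The 95% interval of the fold change lay within 1.2-fold either way for 63 of 82 partners in the HIP and 52 of 81 in EC, and within 1.5-fold for 75 and 77. All 38 complex I members and all 4 complex II members had intervals within 1.5-fold in both regions, while 6 of 16 complex IV members in the HIP did not, among them the scarce Cox4i2, Cox6b2 and Cox8b and the variable Cox5a. By complex, the median log2 fold change in the HIP was 0.02 for I, 0.00 for II, -0.02 for III, 0.06 for IV and -0.01 for V without the triplicated genes. In the EC it was -0.02, -0.03, -0.07, 0.05 and -0.02.

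**Figure D2:**
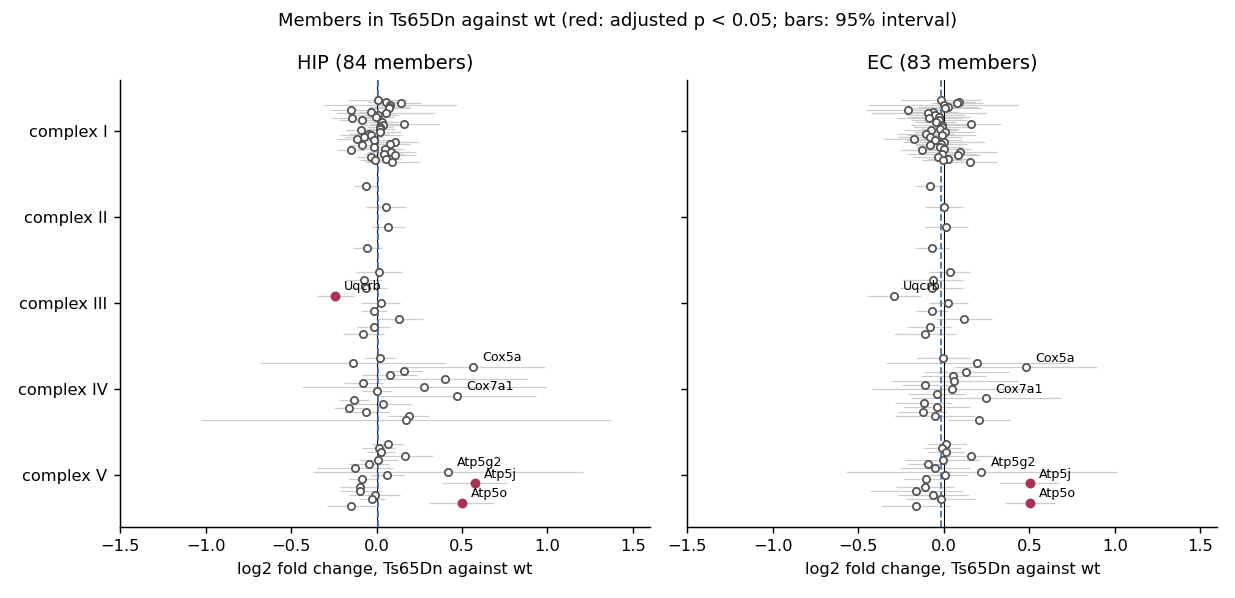
Log2 fold change of Ts65Dn against wt for each member, grouped by complex, in the HIP (84 members) and the EC (83 members), with 95% intervals, red for an adjusted p under 0.05 and a dashed line at the median of the partners outside the triplicated segments. Most points lie close to 0, Atp5j and Atp5o near 0.5 stand out in both panels, and Uqcrb is the single red point below 0.

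Uqcrb, a small subunit of complex III at chr13:66900617-66905378, ranged from 29.3 to 33.0 CPM in wt HIP with a median of 31.4, and from 24.6 to 28.4 in Ts65Dn HIP with a median of 26.9. In wt EC it ranged from 29.0 to 35.6 CPM with a median of 34.1, and in Ts65Dn EC from 23.5 to 29.9 with a median of 27.8. The genotypes did not overlap in the HIP and in EC wt replicate 6 (29.0 CPM) fell inside the Ts65Dn range. The log2 fold change was -0.24 ± 0.05 (SE, n = 6 per genotype) in the HIP with an adjusted p of 0.0377, and -0.29 ± 0.07 in EC with an adjusted p of 0.0537. The HIP call held in only 2 of the 12 fits that left out 1 library, those without Ts65Dn replicate 2 or 3.

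The Uqcrb transcript holds 40.4% G and C bases, and levels of AT-rich transcripts differed between libraries. Over 1373 genes with transcripts under 42% GC, the median in the Ts65Dn libraries stood between -0.16 and -0.03 log2 units from the wt mean in the HIP and between -0.28 and -0.01 in EC, against -0.06 to 0.07 and -0.09 to 0.05 in the wt libraries, so that 4 Ts65Dn libraries in each region lay below all wt libraries. With the trend on GC content and length removed, the log2 fold change of Uqcrb became -0.08 in the HIP (adjusted p = 0.617) and -0.08 in EC (adjusted p = 0.563). Among the partners, the third with the lowest GC content had a median log2 fold change of -0.03 in the HIP and -0.06 in EC, and the third with the highest 0.05 and 0.01. Across partners, Spearman's rho between GC content and log2 fold change was 0.34 in the HIP (82 genes) and 0.40 in EC (81 genes), against 0.40 and 0.44 across all genes tested, given as a description since genes in a library share its base composition. Atp5j and Atp5o kept their calls with the trend removed.

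Counts of members whose genotypes did not overlap at all were small. In the HIP, 0 members were higher and 3 lower in all 6 Ts65Dn than in all 6 wt libraries (Ndufs4, Sdha and Uqcrb), beside 1.67% of all genes in either direction, and in EC 2 were higher (Atp5j and Atp5o) and 0 lower, beside 2.46%. By library total, or without replicate 3, Atp5j and Atp5o were also higher in all Ts65Dn libraries of the HIP (beside 1.77% of all genes by library total and 3.54% without replicate 3), and without replicate 3 Ndufb8, a complex I accessory subunit, was lower in EC (beside 4.07%). Ndufs4, an accessory subunit of complex I known from Leigh syndrome, ranged from 70.4 to 74.4 CPM in wt and from 60.6 to 67.7 in Ts65Dn HIP, with a log2 fold change of -0.15 ± 0.04 (SE) and an adjusted p of 0.0836. Sdha, the catalytic flavoprotein of complex II, ranged from 473.8 to 486.1 CPM in wt and from 445.1 to 471.4 in Ts65Dn HIP, a log2 fold change of -0.06 with an adjusted p of 0.433.

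Other members with wide differences did not pass the test. Cox5a, a nuclear subunit of cytochrome c oxidase, ranged in the HIP from 21.8 to 41.3 CPM in wt and from 26.8 to 61.2 in Ts65Dn, with medians of 30.8 and 47.3. Its log2 fold change was 0.56 ± 0.20 (SE) in the HIP with an adjusted p of 0.192, and 0.48 ± 0.19 in EC with an adjusted p of 0.196. Cox7a1, the isoform best known from heart and muscle, was near 1 CPM, with a log2 difference of 0.47 ± 0.21 in the HIP (adjusted p = 0.324) and 0.25 ± 0.21 in EC (adjusted p = 0.565). Ndufv3, a complex I subunit whose human gene is on Hsa21 but whose mouse gene lies on Mmu17 outside the triplicated segment, differed by 0.09 ± 0.07 (log2) in the HIP (adjusted p = 0.607) and 0.15 ± 0.08 in EC (adjusted p = 0.302).

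Some members differed more between mice than between genotypes. The median ratio of the highest to the lowest library over members was 1.24 in the HIP and 1.40 in EC, but Atp5g2, which encodes a copy of the c-ring subunit of the ATP synthase, spanned 4.36-fold and 4.52-fold. In wt HIP it was 2.80 and 2.37 CPM in replicates 1 and 4 and 6.87 to 8.56 in the other 4, and in wt EC 3.54 and 2.51 in the same mice and 7.44 to 11.5 in the others. In Ts65Dn, replicates 3 and 5 were low in the HIP (3.91 and 3.43 CPM, against 7.27 to 12.0), and replicates 3, 4 and 5 in EC (4.27 to 4.46 CPM, against 9.20 to 13.1). The low mice were thus the same in both regions except for Ts65Dn replicate 4, and low mice occurred in both genotypes. Its genotype difference was 0.42 ± 0.37 (SE) on the log2 scale in the HIP (adjusted p = 0.644) and 0.22 ± 0.37 in EC (adjusted p = 0.811).

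Ndufa12, an accessory subunit of complex I, was chosen here after its values were seen. In wt HIP it was 33.1 to 36.4 CPM in replicates 1, 4 and 6 and 19.3 to 21.9 in replicates 2, 3 and 5, and in wt EC 38.8 to 43.2 and 21.2 to 27.1 in the same mice. In Ts65Dn mice, replicates 4 and 5 were the lowest in both regions, at 23.2 and 20.6 CPM in the HIP and 21.4 and 23.7 in EC. Since the mice fell into separate groups for Atp5g2 and Ndufa12, no pooled correlation is given for them. Exon sequence of Ndufa12 is matched by a pseudogene, whereas no such copy was found for Atp5g2.

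For Cox5a the values were spread more evenly. Across the 12 mice, its deviations from the group mean in the HIP and in EC had a Pearson's r of 0.78 (permutation p = 0.00266, adjusted over 84 members 0.0447) and a Spearman's rho of 0.82 (permutation p = 0.00216, adjusted 0.0644). Without the 2 mice farthest from the median, r was 0.63. Over all 84 members the median r was 0.13, with 59 above 0.

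**Figure D3:**
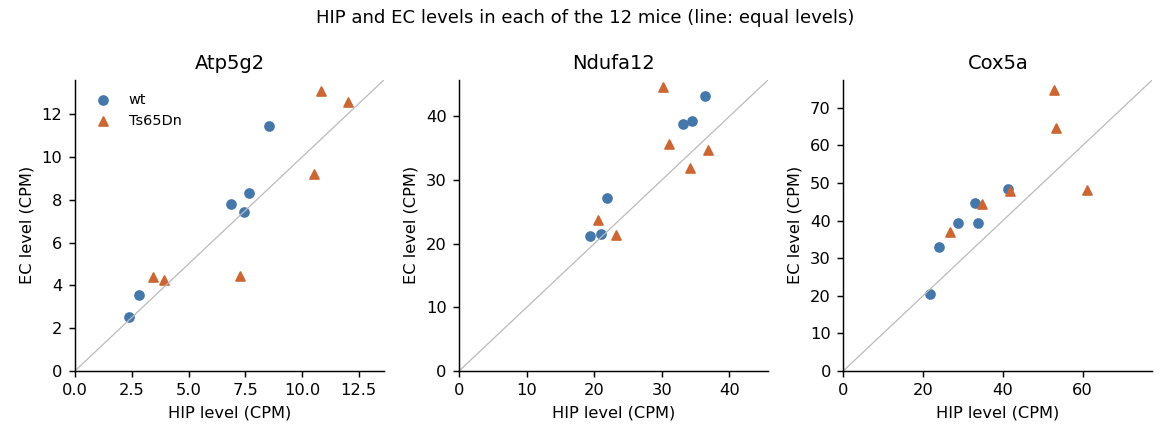
Level in EC against level in the HIP of the same mouse, both in CPM, for Atp5g2, Ndufa12 and Cox5a, with 1 point for each of 12 mice and a line at equal levels. Mice that are low in the HIP tend to be low in EC for each gene, in both genotypes.

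The third question was how the members differ between HIP and EC within the same mice. In wt mice 52 of 84 members were lower in the HIP than in EC and 3 higher, beside 58.6% of all 18109 genes tested being called, 30.3% higher and 28.3% lower. In Ts65Dn mice 43 were lower and 4 higher, beside 56.5% of all genes, 29.5% higher and 27.0% lower. The share of members called in either direction was thus near that of all genes, and their direction was mostly 1 way, with 76 of 84 below 0 in wt mice. The median log2 difference of HIP against EC was -0.19 in wt and -0.15 in Ts65Dn mice, against 0.01 over all genes in each. These calls came from edgeR on all 24 libraries with a term for each mouse.

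The lower members came from every complex, namely 23 of 38 in complex I, 3 of 4 in complex II, 6 of 9 in complex III, 10 of 16 in complex IV and 10 of 17 in complex V. Among the abundant members, Cox4i1, the common isoform of a regulatory subunit of cytochrome c oxidase, ranged from 387.1 to 420.2 CPM in wt HIP and from 488.6 to 621.5 in wt EC, and the regions did not overlap. Its log2 difference was -0.43 ± 0.05 (SE, n = 6 mice) with an adjusted p of 6.9e-06, and -0.41 ± 0.05 in Ts65Dn mice. Ndufb5, an accessory complex I subunit, ranged from 71.7 to 80.3 CPM in wt HIP and from 95.01 to 114.4 in wt EC, again without overlap, with a difference of -0.44 ± 0.06 in wt and -0.38 ± 0.06 in Ts65Dn mice. Further complex I members were Ndufa2 (-0.41 in wt and -0.34 in Ts65Dn mice), Ndufc2 (-0.36 and -0.26), Ndufs6 (-0.35 and -0.28) and Ndufv1, which binds NADH (-0.34 and -0.31), each lower in the HIP of all 6 wt mice. Atp5d, the delta subunit of the ATP synthase head, differed by -0.36 in each genotype, and Atp5o by -0.29 in wt and -0.31 in Ts65Dn mice.

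The widest differences belonged to scarce isoforms, while Ndufa4l2, also scarce, differed by about as much as Ndufb5. Cox6a2, known as the heart and muscle form of its subunit, ranged from 0.982 to 2.20 CPM in wt HIP and from 2.84 to 5.03 in wt EC, with a log2 difference of -1.18 ± 0.16 (adjusted p = 1.0e-05), and of -0.84 ± 0.15 in Ts65Dn mice. Cox4i2, known as the hypoxia-responsive form, ranged from 0.474 to 1.16 CPM in wt HIP and from 0.7999 to 2.56 in wt EC, a difference of -0.76 ± 0.23 (adjusted p = 0.0108) that was -0.49 (adjusted p = 0.0700) without wt replicate 2. In Ts65Dn mice it was -1.15 ± 0.23. Ndufa4l2, the inducible relative of Ndufa4, differed by -0.43 ± 0.14 (adjusted p = 0.0147) in wt mice, by -0.32 (adjusted p = 0.0754) without wt replicate 2, and by -0.29 ± 0.14 in Ts65Dn mice (adjusted p = 0.0902).

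The members higher in the HIP were Cox8b, Cox6b2 and Atp5s in wt mice, and Cox7a1 in addition in Ts65Dn mice (log2 difference 0.53 ± 0.19, adjusted p = 0.0274). Atp5s, a factor linked to the ATP synthase whose name falls under the rule, ranged from 17.2 to 19.6 CPM in wt HIP and from 12.9 to 15.9 in wt EC, with a difference of 0.29 ± 0.07 (adjusted p = 0.00162). Cox8b, known as the heart and muscle form of subunit VIII, had 8 to 39 raw counts in the wt HIP and 1 to 5 in the wt EC libraries, a log2 difference of 2.42 ± 0.49 (adjusted p = 0.000578). Cox6b2, known as the testis form, ranged from 1.11 to 3.87 CPM in wt HIP and from 0.587 to 1.53 in wt EC, with a difference of 0.99 ± 0.24 (adjusted p = 0.00192).

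Markers of choroid plexus, an epithelium that borders the HIP in the ventricle, moved with Cox6b2 and Cox8b. The summed level of 6 such markers (Ttr, Kl, Folr1, Aqp1, Kcnj13 and Otx2), all of which were higher in the HIP, ranged from 52.2 to 5093 CPM in the HIP and from 8.70 to 49.9 in EC. Among the wt HIP libraries, replicate 2 had the highest sum (4845 CPM) and the highest Cox6b2 (3.87 CPM) and Cox8b (39 counts), and among the Ts65Dn HIP libraries replicate 1 had the highest of all 3 (5093 CPM, 3.85 CPM and 62 counts). Over the 12 HIP libraries, Cox6b2 and the marker sum, as deviations from the group means, had a Pearson's r of 0.77 (permutation p = 0.00504, adjusted over 84 members 0.212) and a Spearman's rho of 0.94 (permutation p = 5e-05, adjusted 0.0042), with r = 0.75 without the 2 farthest libraries. For Cox8b, r was 0.77 (permutation p = 0.00223, adjusted 0.187) and rho 0.80 (permutation p = 0.00262, adjusted 0.110), with r = 0.72 without the 2 farthest. The part of choroid plexus in the regional difference of these members was not tested.

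Other cell types also differed between the regions, and their part in the lower levels of the members was not tested. Of 8 neuron markers 5 were lower in wt HIP and 0 higher (median log2 difference -0.23), as were 6 of 6 microglia (-0.31), 4 of 5 endothelial (-0.40), 2 of 2 OPC (-0.30) and 4 of 5 red blood cell markers (-1.02), while 6 of 6 oligodendrocyte markers were higher (median 2.07). Astrocyte markers were split, with 3 of 6 higher and 3 lower. Of 77 cytosolic ribosomal protein genes tested, 41 were lower and 2 higher, with a median of -0.21, close to that of the members. Removing the trend on GC content and length left 40 members lower and 4 higher in wt mice (median -0.13) and 35 lower and 6 higher in Ts65Dn mice (median -0.09). With the trend kept, 58.6% and 56.5% of all genes were called. In the third of partners with the highest GC content, the median moved from -0.21 to -0.07 in wt and from -0.19 to -0.03 in Ts65Dn mice. For the third with the lowest, it moved from -0.13 to -0.16 and from -0.10 to -0.13.

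**Figure D4:**
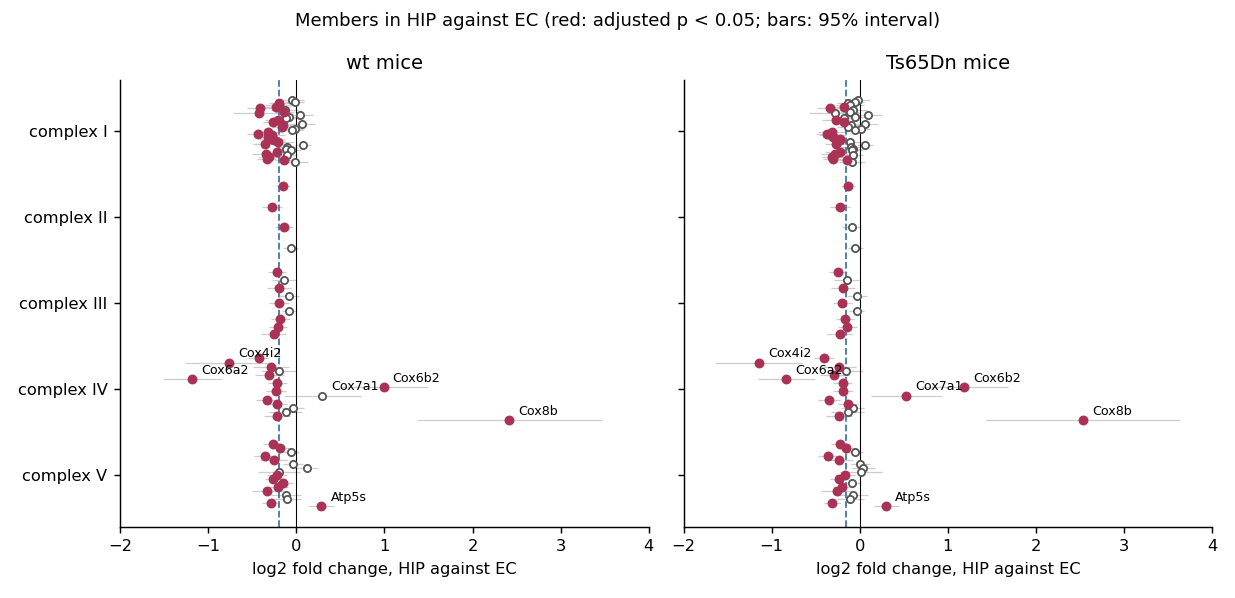
Log2 difference of HIP against EC for the 84 members by complex, in wt and in Ts65Dn mice, with 95% intervals, red for an adjusted p under 0.05 and a dashed line at the median of the members outside the triplicated segments. Most points lie below 0 in every complex, and the exceptions with wide intervals are Cox8b and Cox6b2 above and Cox6a2 and Cox4i2 below.

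Whether the regional difference depended on genotype was tested by an interaction term. It was called for 0 of 18109 genes (0%) and for 0 members by edgeR and by DESeq2, and at an unadjusted p under 0.05 stood 0 members, beside 4.10% of all genes. The smallest p among members belonged to Cox6a2 with an interaction of 0.34 ± 0.22 (SE, log2), Atp5g2 with 0.21 ± 0.16 and Cox4i2 with -0.38 ± 0.33, each at an adjusted p of 0.9998. For the isoforms at about 1 CPM these errors leave room for differences that could not be detected with these libraries.

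Levels can be compared between members only per length, here as CPM per kilobase of merged exons in wt mice. Over the 84 members the median was 40.4 in the HIP and 45.6 in EC. In wt HIP, the highest in each complex were Ndufa4 (123.1 ± 3.84, SD, n = 6), first described in complex I and now assigned to complex IV, Sdha (116.3 ± 1.12), Uqcr10 (113.6 ± 6.16), Cox8a (373.1 ± 18.2) and Atp5a1 (316.0 ± 10.9), which encodes the alpha subunit of the catalytic head. Atp5b, the beta subunit that carries the catalytic sites, stood next to Atp5a1 at 298.6 ± 10.7, and their ranges met within the spread. The lowest were Ndufa4l2 (1.73 ± 0.229), Sdhc (22.5 ± 0.665), Uqcrb (35.9 ± 1.53), Cox4i2 (1.04 ± 0.346) and Atp5l (1.58 ± 0.0375).

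The lengths matter for these orders, since noncoding transcripts lengthen the merged exons of some members. Per kilobase of the longest protein-coding transcript in wt HIP, Atp5b was highest in complex V (660.2), Uqcrh in complex III (229.0) and Cox4i1 in complex IV (518.2). On that length in wt HIP, Atp5l stood at 18.7, and the lowest in complex V were Atp5g2 (7.90 ± 3.54, SD) and Atp5g1 (8.49 ± 1.26), which did not differ beyond their spread and stood in the other order in wt EC. Uqcrq (45.1) took the lowest place in complex III from Uqcrb (58.7), whereas Ndufa4, Sdha, Ndufa4l2, Sdhc and Cox4i2 kept their places in wt HIP.

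**Figure D5:**
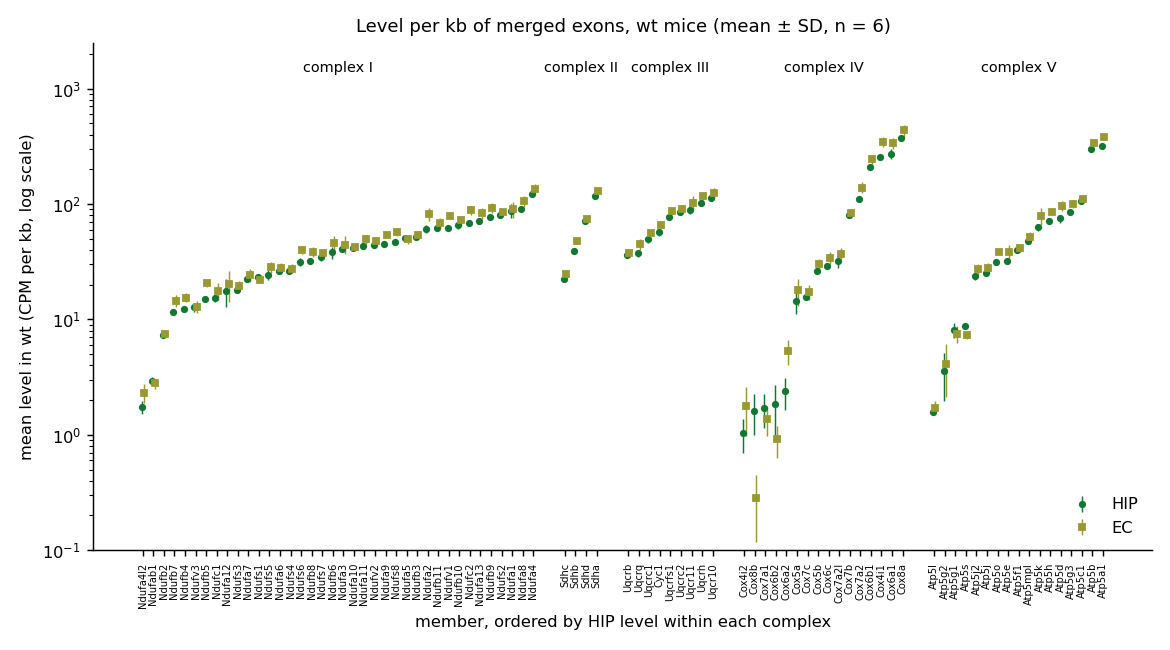
Level of each member in CPM per kilobase of merged exons on a log axis, by complex, in wt HIP (circles) and wt EC (squares), as the mean and SD of 6 libraries. The scarce isoforms Cox4i2, Cox6b2, Cox8b and Ndufa4l2 lie far below the median of 40.4 in the HIP, and Cox8a and Atp5a1 far above it.

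Isoform pairs were led by the form known from most tissues. In wt HIP, in CPM per kilobase of merged exons, Cox4i1 stood at 255.8 against 1.04 for Cox4i2, Cox6a1 at 272.0 against 2.40 for Cox6a2, and Cox6b1 at 211.3 against 1.85 for Cox6b2. Cox8a stood at 373.1 against 1.62 for Cox8b, and Cox7a2 at 109.7 against 32.1 for Cox7a2l and 1.70 for Cox7a1. Cox6c was at 29.0 and Cox7b at 81.0, and Ndufa4 at 123.1 exceeded Ndufa4l2 at 1.73. The same order held in each of these sets in wt EC. Of the 3 genes that encode the c-ring subunit, Atp5g3 was highest (85.8 in the HIP and 100.2 in EC), with Atp5g1 at 8.15 and 7.50 and Atp5g2 at 3.55 and 4.09.

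Genes that work with the members were followed as lists. Among the 13 subunits encoded by mtDNA, mt-Atp6, a membrane subunit of the ATP synthase, fell in the HIP (log2 fold change -0.57 ± 0.12, adjusted p = 0.0464) and the EC (-0.94 ± 0.18, adjusted p = 0.0174), at means of 6.94 to 14.2 CPM. The complex I subunit mt-Nd1 fell in EC (-0.57 ± 0.12, adjusted p = 0.0236), at means of 6440 CPM in Ts65Dn and 9523 CPM in wt. The counts of mt-Atp6 were thus very small beside those of mt-Nd1. Whether they stand for the whole mt-Atp6 transcript was not tested. Called were thus 1 of 13 in the HIP and 2 of 13 in EC, beside 1.04% and 2.50% of all genes. All 13 had a log2 fold change below 0 in each region, with medians of -0.28 and -0.44. At an unadjusted p under 0.05 stood 9 and 10 of them, beside 14.8% and 19.0% of all genes. Without replicate 3, mt-Atp8, another ATP synthase subunit, was called lower in EC as well. The median over 6 astrocyte markers, taken relative to the wt mean, had a median of -0.17 over the Ts65Dn HIP and -0.21 over the Ts65Dn EC libraries, with 0 of the 6 called in either region. For 5 red blood cell markers these medians were -0.37 and -0.61, with 0 called. For 5 striatum markers they were 0.10 and 0.14, with 1 called higher in EC. Of 6 microglia markers, at medians of 0.04 and -0.06, 1 was called lower in each region. No marker of the other cell type and region lists was called with genotype. The part of these lists, and of the AT-rich transcripts given above, was not tested. The medians of the nuclear members thus stood nearer to 0 than those of their mtDNA partners, and this difference was not tested.

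None of 16 assembly factors tested for complex I, 10 for complexes II and III or 22 for complex IV was called with genotype in either region by edgeR, beside 1.04% and 2.50% of all genes, with 2, 0 and 2 at an unadjusted p under 0.05 in the HIP and 1, 0 and 3 in EC, beside 14.8% and 19.0% of all genes. Of 6 genes for assembly and regulation of complex V, 1 rose in EC, the assembly factor Tmem242 (0.42 ± 0.09, adjusted p = 0.0228), which lies in the triplicated Mmu17 segment. Without replicate 3 it passed in the HIP too (0.47 ± 0.05, adjusted p = 0.000353). None of 11 electron carriers or 10 regulators of nuclear respiratory genes, Gabpa among them, passed, with 1 and 3 at an unadjusted p under 0.05 in the HIP and 2 and 2 in EC. Without replicate 3, Gabpb2, a partner subunit of GABP, was called lower in the HIP and Gabpa higher in EC. Of 14 citric acid cycle enzymes only Suclg2, a subunit of succinyl-CoA ligase, was called, lower in EC (-0.30 ± 0.07, adjusted p = 0.0479), and it did not pass without replicate 3 (-0.31 ± 0.08, adjusted p = 0.0563). Of the 77 ribosomal protein genes 3 rose in the HIP (Rplp2 by 0.36, Rpl11 by 0.25 and Rps21 by 0.31 on the log2 scale) and 2 fell (Rps4x, -0.20, and Rpl23, -0.26). Without replicate 3, Rps21 no longer passed (adjusted p = 0.0561).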

How the data were processed

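RNA-Seq libraries of poly(A) RNA, prepared with a stranded kit per the labels, were made from HIP and EC of 6 wt and 6 Ts65Dn mice, grouped by genotype and region from the sample labels. The authors demultiplexed with bcl2fastq 2.17.1.14, aligned the reads with Hisat2 to GRCm38 (Ensembl annotation) and deposited raw counts per gene made with HTSeq-count, without normalization. All 24 count columns were used. Deposited tables of the authors' own comparisons hold DESeq2 and FCROS values and were not used. IDs were matched to GENCODE vM21 (99.6% matched). Triplicated segments ran from Mrpl39 to Zbtb21 on Mmu16 and from Scaf8 to Pde10a on Mmu17.

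DEGs were called with edgeR 4.0.16 (R 4.3.3) quasi-likelihood tests after filterByExpr and TMM, at a Benjamini-Hochberg adjusted p under 0.05 over all genes, on 12 libraries per region for genotype and on all 24, with a term per mouse, for region and interaction. Positive values are higher in Ts65Dn, or in the HIP. Exact permutation tests went through all 924 arrangements with numpy 2.4.6, and correlations used scipy 1.17.1. GC content and length trends were removed, as an alternative, by natural splines fitted to each library's log2 deviations. Pseudogene copies are matches of at least 97% identity over 100 bases. Alternatives were DESeq2 1.42.0 and its size factors, other low-count filters, a replicate block, no mouse term, other lengths and each library left out. Lists without Ts65Dn replicate 3 and overlap by library total were added after seeing the data. HIP and EC libraries of a mouse deviated together in all 12 mice (r 0.127 to 0.522). Steps were tested on simulated data.

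Members, lists and tests were chosen with earlier results of these data known. Named are Atp5j, Atp5o and Ndufv3, members called or among the 5 largest changes with genotype, the 10 largest called each way between regions, the 3 smallest p for the interaction, isoform sets, the highest and lowest per length, called list genes and Gabpa. With 6 mice per group and 23128589 to 40476492 counts per library, p-values of the genotype tests measure the spread between mice. Those for region and interaction measure the spread of the difference between HIP and EC within mice, since the fit has a term per mouse.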

Additional observations from a re-analysis of the deposited data

Results flagged for a closer look

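Of 88 groups of 6 libraries examined for the named members, 5 had a highest or lowest library that lay apart from the rest by Dixon's criterion, which chance gives in about 1 of 20 groups. In the Ts65Dn HIP, replicate 3 was far below the others for Atp5j (82.5 CPM) and for Atp5o (62.5 CPM), and this library is the one that showed no excess over the triplicated genes. In the wt HIP, 1 library was far below the others for Atp5o (56.6 CPM). Cox6b2 was far higher in wt HIP replicate 2 (3.87 CPM) and Cox8b in Ts65Dn HIP replicate 1 (2.172 CPM), the libraries with the highest choroid plexus marker sum of their genotype.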

How the results depend on the processing

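In the HIP, 3 members were called with genotype. DESeq2 called 8 (662 genes in all against 181, or 4.62% of those with an adjusted p), adding Cox5b, Cox7a2, Cox7b, Cox8a and Ndufs4, and an adjusted p under 0.1 gave 5 (2.24% of all genes). With a replicate block, 1 member was called in the HIP and Atp5o had a log2 fold change of 0.48 (adjusted p = 0.0878), but same-numbered wt and Ts65Dn mice share only a number (correlations -0.278 to 0.287 in the HIP and -0.216 to 0.187 in EC, 1 of 12 closest to its own number). The block left 29 genes called in the HIP, and in EC 36 of 426. In the EC, 2 members were called, 3 by DESeq2 (8.72% of all genes) and 3 at an adjusted p under 0.1 (6.01%). The cause of these differences was not tested.

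Leaving out 1 library at a time gave 1 to 3 members in the HIP (1 without Ts65Dn replicate 6 or wt replicate 3) and 2 to 3 in EC. HIP against EC gave 40 to 59 members in wt mice and 38 to 51 in Ts65Dn mice, and 0 for the interaction. With all libraries, the genotype calls took 1.04% of all genes in the HIP and 2.50% in EC. The calls of HIP against EC took 58.6% of all genes in wt and 56.5% in Ts65Dn mice. Log2 fold changes ranged from 0.55 to 0.66 for Atp5j and from 0.46 to 0.58 for Atp5o in the HIP, and from 0.46 to 0.55 for each in EC. Medians over members ranged from -0.00 to 0.02 in the HIP, from -0.07 to 0.01 in EC, and for HIP against EC from -0.21 to -0.17 in wt and from -0.19 to -0.10 in Ts65Dn mice. Without the low-count filter, the interaction was called for 37 genes and 0 members.

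The median level per kilobase of the longest transcript was 61.0 in wt HIP and 67.0 in wt EC, and per longest protein-coding transcript, chosen after seeing the data, 70.7 and 83.8. Of 408 values of named genes under alternatives, 388 kept direction and side of the threshold, 16 no longer passed, 4 newly passed and 0 changed sign. The scarce isoforms Cox4i2, Cox6a2, Cox6b2, Cox7a1 and Cox8b had mean raw counts between 11.04 (Cox8b) and 83.17 (Cox6a2). Whether depth or the spread between mice limits their values was not tested.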
